A study of Mus musculus with 2 samples.

Results

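The T cell receptor alpha chain begins with a variable (V) segment, and in the mouse these segments are the Trav genes. The Trav genes were taken as every row of the count tables whose symbol starts with Trav, which gave 128 of 32285 rows, with Trac, the constant segment of the same chain, as a reference. The segments were followed in mouse regulatory T (Treg) cells, the lineage that restrains immune responses under control of the transcription factor Foxp3. The cells were stained with MitoTracker, a dye that gathers in mitochondria, and sorted by its brightness. The bright population is called Mito-high and the dim population Mito-low, with 1 single-cell 5′ library of each. The labels name no tissue, strain, genotype, treatment, sex or age for the mice, nor how many animals were used. No population was replicated, so no difference below could be tested, and every interval is a 95% interval that covers counting error only.

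A T cell assembles its alpha chain gene in the thymus by joining 1 V segment to 1 J (Traj) segment upstream of the constant segment Trac, and its beta chain from Trbv, Trbd and Trbj segments. Joining starts with V segments near the J segments, and further rounds on the same chromosome reach V segments farther away. Both chromosomes can be joined, so some T cells transcribe alpha chains with different V segments. The choice of V segment shapes the parts of the receptor that touch the MHC molecule, and the joint of V and J shapes the part that touches the peptide. A conventional gene expression table of 5′ reads records which V segment a cell transcribes, but not the joint.

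The Trav rows lie on the plus strand of chromosome 14 in a stretch of 1550 kb, and the Trac gene starts at position 54220521 of the mm10 (GRCm38) genome. All 128 symbols matched the GENCODE annotation of that build, which lists 20 of them as pseudogenes, and their names sort them into 23 families. The stretch holds repeated copies: 39 rows carry a d after the family number, 34 an n and 55 neither. In 18 pairs, which take in 36 rows, the annotated transcripts are letter for letter the same. How alike the copies are is shown by 120 aligned bases at the 3′ end of the exon sequence of rows on which the results turn. The first set is family 16, with the row that carries neither letter (Trav16, chr14:53743586-53743705), the n copy (Trav16n, chr14:53351502-53351621) and the d copy (Trav16d-dv11, chr14:53047702-53047821). Capitals mark bases that differ from the first of the set, 3 in Trav16n and 4 in Trav16d-dv11.
Trav16: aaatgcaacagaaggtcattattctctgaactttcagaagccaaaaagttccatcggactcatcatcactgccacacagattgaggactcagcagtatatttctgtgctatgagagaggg
Trav16n: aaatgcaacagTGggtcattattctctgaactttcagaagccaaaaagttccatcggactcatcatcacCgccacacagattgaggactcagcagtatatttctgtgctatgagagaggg
Trav16d-dv11: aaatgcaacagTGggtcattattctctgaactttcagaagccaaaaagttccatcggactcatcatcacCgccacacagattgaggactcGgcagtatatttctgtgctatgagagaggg
The second set is 3 rows of family 14, Trav14d-3-dv8 (chr14:53078926-53079045), Trav14n-3 (chr14:53370456-53370575) and Trav14-3 (chr14:53763575-53763694). Trav14n-3 differs from Trav14d-3-dv8 at 4 of these bases and Trav14-3 at 3.
Trav14d-3-dv8: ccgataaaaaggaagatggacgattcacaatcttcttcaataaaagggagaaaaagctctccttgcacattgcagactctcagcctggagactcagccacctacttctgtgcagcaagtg
Trav14n-3: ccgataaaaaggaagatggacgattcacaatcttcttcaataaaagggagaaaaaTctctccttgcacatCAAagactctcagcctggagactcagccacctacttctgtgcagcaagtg
Trav14-3: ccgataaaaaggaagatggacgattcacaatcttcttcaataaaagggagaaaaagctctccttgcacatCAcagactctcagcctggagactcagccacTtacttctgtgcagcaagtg
The third set is Trav11 (chr14:53519739-53519858) and Trav11d (chr14:52824793-52824912), the V segments of the invariant alpha chain of mouse natural killer T cells, which differ at 0 of these bases. The stretch of Trav11 stops 1 base before the annotated end of that row, so as to align with Trav11d.
Trav11: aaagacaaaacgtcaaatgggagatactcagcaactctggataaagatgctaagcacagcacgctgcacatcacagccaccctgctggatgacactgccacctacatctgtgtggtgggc
Trav11d: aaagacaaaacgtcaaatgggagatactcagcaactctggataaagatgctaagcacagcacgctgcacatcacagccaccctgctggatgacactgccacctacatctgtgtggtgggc

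Barcodes with at least 500 detected genes and at most 20% of unique molecular identifiers (UMIs, 1 per captured RNA molecule) from mitochondrially encoded genes were kept. These were 12217 of 12352 barcodes in Mito-high, with a median of 6132 UMIs, and 11679 of 11901 in Mito-low, with a median of 4668 UMIs. The Mito-high library holds more barcodes than the 12000 cells given as loaded, and no doublets were removed. The kept libraries shared 35 barcodes, of which 1 had a Trav call in both and 0 the same row. All 7 alpha-beta T cell marker genes and all 4 Treg markers were detected in both libraries: Ctla4 in 91.7% of Mito-high, against 93.3% of Mito-low cells, Ikzf2 in 83.0% of Mito-high, against 92.8% of Mito-low cells, Foxp3 in 15.99% of Mito-high, against 17.3% of Mito-low cells, and Il2ra in 57.6% of Mito-high, against 39.1% of Mito-low cells. Of the CD8 T cell genes, Cd8a was found in 0.147% of Mito-high, against 0.0171% of Mito-low cells, and Cd8b1 in 5.76% of Mito-high, against 2.60% of Mito-low cells. Of the natural killer cell genes, Ncr1 was found in no cell, Klrb1c in 0.442% of Mito-high, against 0.394% of Mito-low cells, and Eomes in 0.598% of Mito-high, against 0.0428% of Mito-low cells. The part of such cells in the results was not tested. Cells were put in a resting state by at least 1 UMI of Igfbp4 and in an effector state by at least 2 of the 3 genes Ccl5, Il10 and Klrg1. Mito-high held 165 effector, 2765 resting and 9281 other cells, and Mito-low held 1530 effector, 185 resting and 9961 other cells. The 6 Mito-high and 3 Mito-low cells that met both definitions were left out of comparisons between states.

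Of the 128 Trav rows, 80 had at least 1 UMI in Mito-high, 79 in Mito-low and 76 in both, while 45 had none in either. Detection followed sequence. Of 38 rows in which no window of 90 bases was found in that row's transcript alone among the Trav transcripts, 37 had 0 UMIs. The exception was Trav6n-7, with 1 UMI in Mito-high. Of 90 rows with at least some such windows, 82 had UMIs. The 8 without were 5 pseudogenes and Trav12n-3, Trav11 and Trav7n-6, chosen for naming after their values were seen. Windows of their own made up 2.27% of Trav12n-3, 0.394% of Trav11 and 76.4% of Trav7n-6. With windows of 50 bases, 39 rows had none of their own, and 1 of these had UMIs. Most rows at 0 are thus rows that cannot be told from their copies, and their 0 cannot be read as a lack of use. The read length is not stated, and the windows were compared among Trav transcripts only, not with the rest of the genome.

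**Figure D1:**
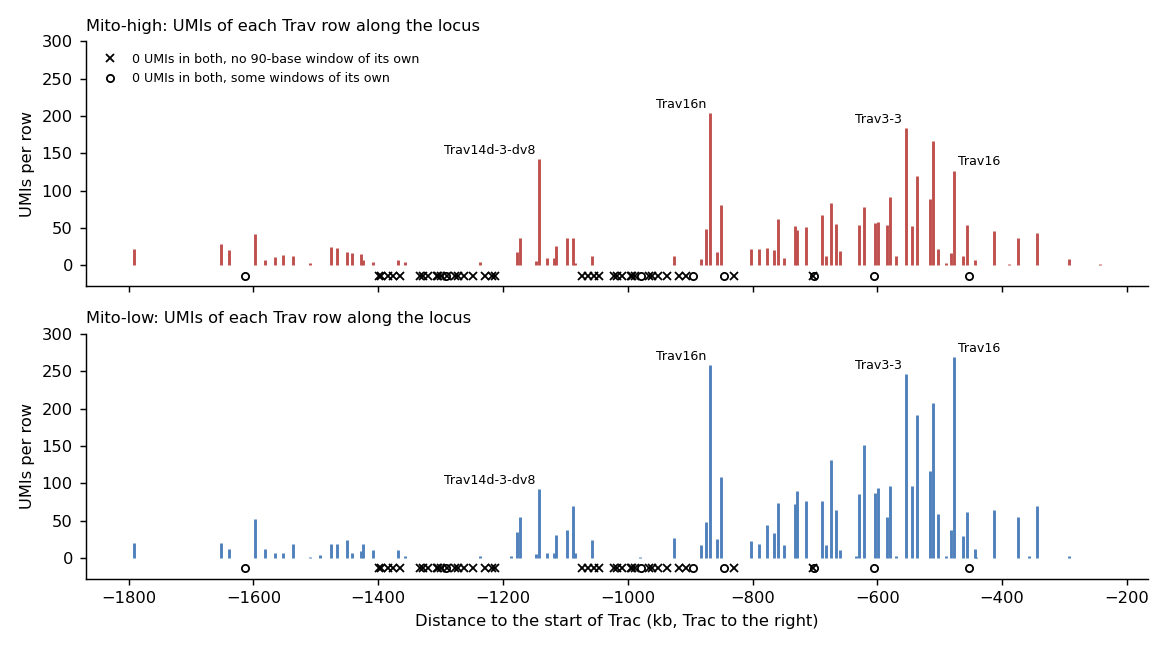
UMIs of each of the 128 Trav rows (bars) against distance to the start of Trac in kb, with Mito-high above Mito-low. Black marks under the axis show the 45 rows with 0 UMIs in both libraries, 37 of them (crosses) with no 90-base window of their own and 8 (circles) with some; the crosses lie mostly in the stretches with few bars.

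A Trav UMI was found in a minority of cells. At least 1 was present in 2070 Mito-high cells, 16.9% (16.3 to 17.6%), and in 2575 Mito-low cells, 22.0% (21.3 to 22.8%). Mito-low had the larger share although its cells were shallower. After each cell was thinned to 2000 UMIs, which dropped the 139 shallower Mito-high and 491 shallower Mito-low cells, the shares were 6.18% in Mito-high, against 11.3% in Mito-low. Trac itself was detected in 88.8% of Mito-high, against 90.2% of Mito-low cells. Among cells with a Trac UMI, a Trav UMI was present in 17.8% for Mito-high, against 23.1% for Mito-low. Among cells without a Trac UMI it was present in 10.4% of 1374 Mito-high cells and 12.2% of 1149 Mito-low cells. As a measure of free RNA, 16 Mito-high barcodes had B cell genes and no Cd3d, Cd3e or Cd3g; at a median of 3094 UMIs, 0 of these 16 had a Trav UMI, which allows a share of up to 18.75%. That limit lies above the Mito-high share, so the background could not be bounded below it, and Mito-low held 0 such barcodes.

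A cell was called for its most abundant Trav row, and ties were left out. This gave 1947 called Mito-high cells, 15.9% (15.3 to 16.6%) of the library, and 2386 called Mito-low cells, 20.4% (19.7 to 21.2%). Ties took 1.01% of Mito-high, against 1.62% of Mito-low cells. Most calls rest on a single molecule: 1544 in Mito-high, 79.3%, and 1771 in Mito-low, 74.2%. The most UMIs of a row in 1 cell were 11 in Mito-high, against 19 in Mito-low. A beta chain V segment was called in 24.9% of Mito-high, against 24.3% of Mito-low cells, with intervals that overlap (24.1 to 25.7% for the Mito-high share, 23.5 to 25.1% for the Mito-low share).

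The Trav rows together were lower in Mito-high. Their summed level was 32.8 counts per 1000000 UMIs (CPM; 31.6 to 34.0, 2945 UMIs) among Mito-high cells and 65.5 CPM (63.5 to 67.6, 3965 UMIs) among Mito-low cells, a log2 ratio of -0.9996 (-1.07 to -0.93). The median log2 ratio of the 5787 genes at 20 CPM or more in a library was -0.15, and 3.42% of these genes were at or below the Trav ratio. With that median set to 0 the Trav ratio was -0.85. The joining segments shared the direction: Traj rows summed to 27.0 CPM among Mito-high cells and 48.8 CPM among Mito-low cells, a log2 ratio of -0.85 (-0.93 to -0.78). With Traj called as Trav was, Traj27, Traj12 and Traj18 took 71.3% of Mito-high and 71.0% of Mito-low calls. The Traj sum thus stands mostly for few of the 60 Traj rows. The constant segment Trac, at 551 CPM among Mito-high cells and 773 CPM among Mito-low cells, had a log2 ratio of -0.49 (-0.51 to -0.47). Per 100 Trac UMIs there were 5.95 Trav UMIs in Mito-high, against 8.47 in Mito-low. The Trbv rows, at 47.0 CPM among Mito-high cells and 64.4 CPM among Mito-low cells, had a log2 ratio of -0.45 (-0.52 to -0.39), closer to that of Trac than to that of Trav. The constant segments of the beta chain differed less, with log2 ratios of -0.10 for Trbc1 and 0.11 for Trbc2. Among the signalling chains of the receptor complex the log2 ratio was -0.21 for Cd3d, -0.58 for Cd3e, -0.30 for Cd3g and 0.26 for Cd247. Fewer transcripts per cell and fewer transcribing cells cannot be told apart in these sums.

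The lower level in Mito-high was spread over the locus. The 58 rows with at least 20 UMIs over both libraries had a median log2 ratio of -1.01, with a range of -1.95 to 0.71. Of these, 52 had a ratio below 0, as had 66.1% of all 15913 genes with 20 or more UMIs and 62.8% of the 6057 genes among them with no more UMIs than the most detected Trav row. Of the 58 rows, 44 were at least 1.5-fold lower in Mito-high, while 1 was at least 1.5-fold higher. Over the 15913 genes the lower mark was passed by 19.3% and the higher mark by 8.87%, and over the 6057 less detected genes the lower mark was passed by 31%. The interval of the ratio lay wholly below 0 in 42 rows and wholly above 0 in none. It lay below 0 in 45.7% and above 0 in 19.6% of the 15913 genes, and below 0 in 29.2% and above 0 in 13.5% of the 6057 genes. By family, 17 of the 18 with enough UMIs had a ratio below 0, from -1.28 in family 4 up to -0.11 in family 2. Family 15 was the exception, with 37 UMIs in Mito-high, against 15 in Mito-low, and a log2 ratio of 0.68 (-0.17 to 1.70). Families 1, 2 and 15 had intervals that include 0. At the level of rows, Trav16 (ENSMUSG00000076855) was at 1.41 CPM among Mito-high cells and 4.44 CPM among Mito-low cells, a log2 ratio of -1.65 (-1.97 to -1.34). Trav7-6, named as the row with the lowest ratio after its values were seen, had 22 UMIs in Mito-high, against 59 in Mito-low, a log2 ratio of -1.95. Trav14d-3-dv8 (ENSMUSG00000094619) stood at 1.58 CPM among Mito-high cells and 1.52 CPM among Mito-low cells, a log2 ratio of 0.05 (-0.33 to 0.45), the only one of the 10 best detected rows with an interval that includes 0.

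The Trav level also differed between cell states. In Mito-low, effector cells held 81.3 CPM of Trav RNA and resting cells 25.8 CPM, a log2 ratio of 1.61 (1.12 to 2.24). In Mito-high, effector cells held 37.7 CPM and resting cells 28.5 CPM, a log2 ratio of 0.43 (0.01 to 0.78). Trac was higher in effector cells of both libraries. It was at 781 CPM in effector and 471 CPM in resting cells of Mito-high, and at 860 CPM in effector and 463 CPM in resting cells of Mito-low. The effector over resting log2 ratio of Trac was 0.73 (0.65 to 0.81) in Mito-high, an interval that overlaps that of Trav. In Mito-low it was 0.89 (0.77 to 1.02), an interval that does not. Per 100 Trac UMIs there were 4.83 Trav UMIs in effector and 6.05 in resting cells of Mito-high, and 9.46 in effector and 5.59 in resting cells of Mito-low. These values have no interval and rest on 65 Trav UMIs in Mito-high effector and 29 in Mito-low resting cells, so opposite directions were not established. Traj had 34.8 CPM in effector and 26.4 CPM in resting cells of Mito-high, and 58.9 CPM in effector and 23.2 CPM in resting cells of Mito-low. The effector over resting log2 ratio of Traj was 0.42 (-0.01 to 0.78) in Mito-high, an interval that includes 0, and 1.29 (0.78 to 1.97) in Mito-low. The Trbv rows were not higher in effector cells: effector cells had 38.9 CPM and resting cells 42.8 CPM within Mito-high, while within Mito-low effector cells had 51.3 CPM and resting cells 65.9 CPM. The log2 ratio of Trbv in effector over resting cells was -0.12 (-0.52 to 0.22) in Mito-high, against -0.38 (-0.72 to 0.01) in Mito-low.

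Set against the same state in the other library, the Trav gap was present in effector and in other cells but not detectable in resting cells. Mito-high over Mito-low, the log2 ratio was -1.09 (-1.50 to -0.74) in effector cells, -0.90 (-0.98 to -0.82) in other cells and 0.09 (-0.40 to 0.73) in resting cells. The resting value rests on 604 UMIs in Mito-high, against 29 in Mito-low. By the share of cells with a Trav UMI, Mito-high had lower values in effector and other cells, with 23.6% of effector, 16.6% of resting and 16.9% of other cells in Mito-high and 29.2% of effector, 14.1% of resting and 21.1% of other cells in Mito-low. The effector intervals overlap, at 17.4 to 30.9% in Mito-high and 26.9 to 31.5% in Mito-low. The median depth was 8736 UMIs in effector and 6402 in resting cells of Mito-high, and 5288 in effector and 5582 in resting cells of Mito-low. After thinning to 2000 UMIs the share was 6.67% in effector and 5.95% in resting cells of Mito-high, and 12.6% in effector and 5.56% in resting cells of Mito-low.

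**Figure D2:**
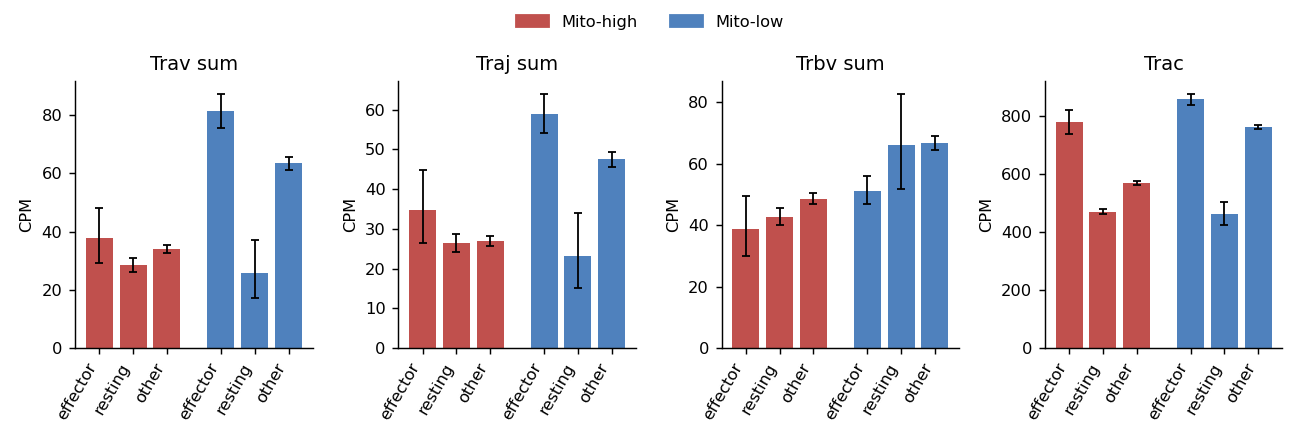
Summed UMIs of Trav, Traj, Trbv and Trac in counts per 1000000 UMIs (CPM) in effector, resting and other cells, Mito-high (red, left) and Mito-low (blue, right); error bars are exact Poisson 95% intervals of the counts. Trav, Traj and Trac bars are highest in effector cells, with 81.3 CPM of Trav in Mito-low effector and 25.8 CPM in Mito-low resting cells, while Trbv bars are not.

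Which V segments the called cells used was much alike in the libraries. Family 14 led in Mito-high with 15.4% of called cells, followed by family 6 with 13.2% and family 16 with 11.6%. In Mito-low, family 6 led with 14.2%, followed by family 16 with 12.8% and family 14 with 11.3%. Family 7 took 8.94% in Mito-high, against 9.14% in Mito-low, and family 12 took 4.78% in Mito-high, against 4.86% in Mito-low. Families 3, 4, 9 and 13 each took between 6.11 and 6.83% in Mito-high, and between 7.25 and 7.80% of called Mito-low cells. Families 5, 8 and 10 took 4.67, 4.26 and 3.65% in Mito-high and 4.36, 3.81 and 3.23% in Mito-low. At the low end, family 21 had 1.49% in Mito-high, against 1.97% in Mito-low, and family 17 had 1.03% in Mito-high, against 1.26% in Mito-low. The summed absolute difference over all 23 families, divided by 2, was 6.94 percentage points. Rows with UMIs were 3 of 9 in family 5, 4 of 9 in family 4, 4 of 10 in family 12 and 12 of 15 in family 6, so the order of the families depends on which copies can be told apart, by an amount that was not measured.

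Of 15 families with at least 50 called cells over both libraries, 1 had intervals that do not overlap, family 14, or 6.67%. It was called in 299 Mito-high cells, 15.4% (13.8 to 17.0%), and in 269 Mito-low cells, 11.3% (10.0 to 12.6%). Family 13 had 6.11% in Mito-high, against 7.80% in Mito-low, with intervals that overlap. The interval of that difference itself, -1.68 percentage points, excludes 0. For the 18 Trbv rows with as many cells the share with intervals apart was 16.7%, 3 rows. Those were Trbv12-1, with 4.97% in Mito-high, against 2.12% in Mito-low, Trbv16, with 3.49% in Mito-high, against 5.57% in Mito-low, and Trbv26, with 3.69% in Mito-high, against 5.50% in Mito-low. In the cells of neither state, family 14 was at 15.4% in Mito-high, against 11.5% in Mito-low. With calls limited to rows of 2 or more UMIs the difference of 4.08 percentage points was 1.53, and 0 families had intervals apart. Among barcodes with a Foxp3 UMI it was 4.91 points, and again 0 families had intervals apart.

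**Figure D3:**
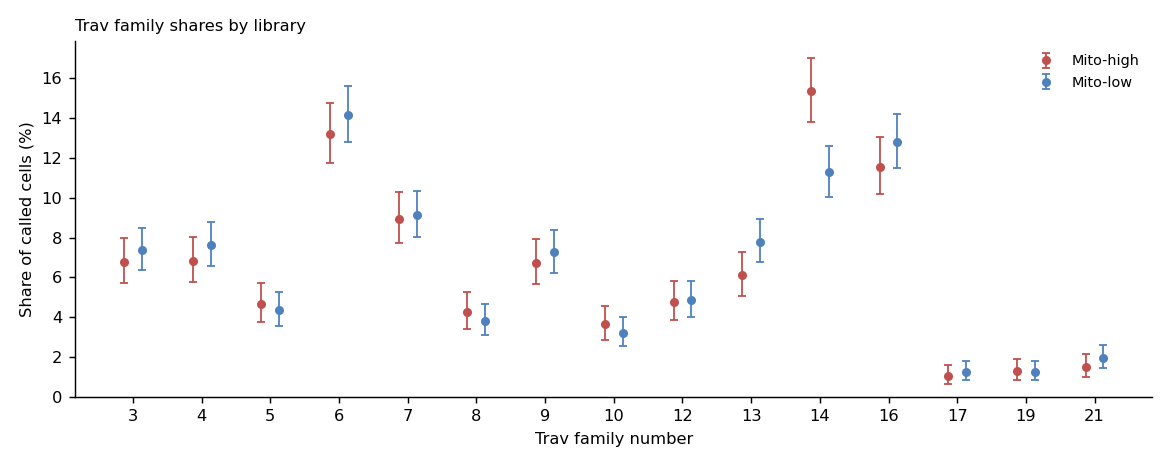
Share of called cells by Trav family in Mito-high (red, left of each pair, 1947 cells) and Mito-low (blue, right, 2386 cells), for the 15 families with at least 50 called cells over both; bars are exact binomial 95% intervals. Intervals overlap in all but family 14, at 15.4% in Mito-high, against 11.3% in Mito-low.

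Within family 14 the gap was mostly that of Trav14d-3-dv8, a segment whose name marks use in alpha and in delta chains. It was called in 98 Mito-high cells, 5.03% (4.10 to 6.10%), and 55 Mito-low cells, 2.31% (1.74 to 2.99%). Without it the family held 10.3% (9.01 to 11.8%) in Mito-high, against 8.97% (7.85 to 10.2%) in Mito-low, intervals that overlap. The near copy Trav14n-3 was level, with 60 cells, 3.08%, in Mito-high and 76 cells, 3.19%, in Mito-low, and so was Trav14-3, with 1.85% in Mito-high, against 1.76% in Mito-low. Trav14-2 had 3.29% in Mito-high, against 2.35% in Mito-low. The 3 sequences printed for family 14 show how few bases separate these rows, and a read that lies within these stretches and covers no marked base cannot be assigned to 1 of them. Over the whole transcript, 92.1% of the 90-base windows of Trav14d-3-dv8 were found in that row alone, as were 70.6% of those of Trav14n-3 and 69.2% of those of Trav14-3. Of 32 rows with at least 50 called cells, intervals did not overlap in 6.25%, Trav14d-3-dv8 and Trav16. Trav16 went the other way, with 71 cells, 3.65% (2.86 to 4.58%), in Mito-high and 136 cells, 5.70% (4.80 to 6.71%), in Mito-low. Its n copy Trav16n, the most or second most called row, had 130 cells, 6.68%, in Mito-high and 137 cells, 5.74%, in Mito-low. The other rows among the 8 most called of a library had intervals that overlap, with Trav3-3 at 5.70% in Mito-high, against 6.71% in Mito-low, Trav6-7-dv9 at 5.14% in Mito-high, against 5.32% in Mito-low, and Trav4-4-dv10 at 3.65% in Mito-high, against 3.86% in Mito-low. Trav13-1 was at 2.26% in Mito-high, against 3.23% in Mito-low, and Trav4-3 at 2.26% in Mito-high, against 3.10% in Mito-low.

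**Figure D4:**
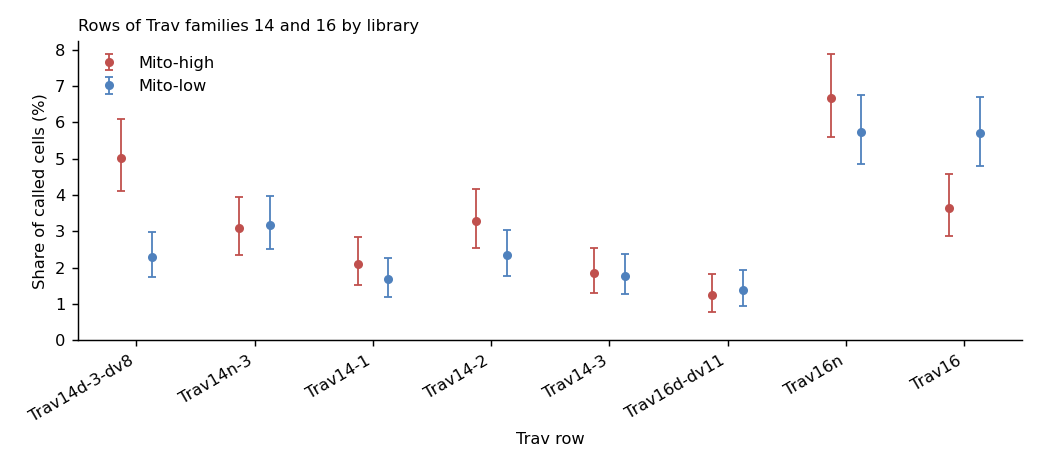
Share of called cells of the detected rows of families 14 and 16 in Mito-high (red, left) and Mito-low (blue, right), with exact binomial 95% intervals. Trav14d-3-dv8 is higher in Mito-high at 5.03%, against 2.31% in Mito-low, and Trav16 is lower in Mito-high at 3.65%, against 5.70% in Mito-low, while the other rows overlap.

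Effector cells had the lower share of family 14 in each library. Among barcodes with a Foxp3 UMI too few cells were called to judge this direction. In Mito-high, 2 of 35 called effector cells, 5.71% (0.70 to 19.2%), and 70 of 435 called resting cells, 16.1% (12.8 to 19.9%), used it, intervals that overlap. In Mito-low, 37 of 411 called effector cells, 9.002% (6.42 to 12.2%), and 7 of 24 called resting cells, 29.2% (12.6 to 51.1%), did, intervals that do not. Among barcodes with a Foxp3 UMI, family 14 was used by 0 of 7 effector and 9 of 83 resting cells of Mito-high. In Mito-low it was used by 10 of 91 effector and 0 of 5 resting cells, a difference of 10.99 percentage points. With counts of 0 among 7 and 5 called cells, neither the same nor the opposite direction was established. Of the 12 families with at least 50 called cells in Mito-high, 0 had intervals apart between effector and resting cells, and of 12 in Mito-low 1 had, or 8.33%. The Mito-low count rests on 24 called resting cells. Trbv rows were not counted in this way within a library, so these counts have no background share beside them. Among the 12 families of Mito-high, the largest effector share relative to resting cells was that of family 10, with 5 effector cells, 14.3%, and 16 resting cells, 3.68%. Families 3 and 7 followed, family 3 with 11.4% of effector and 4.60% of resting cells and family 7 with 14.3% of effector and 7.36% of resting cells. Families 8 and 13 each had 0 of 35 effector cells, which allows a share of up to 8.57%, while resting cells held 4.83% of family 8 and 5.29% of family 13. In Mito-low the 24 called resting cells included 0 of families 4, 5, 12 and 13, which allows a share of up to 12.5% of each, and family 6 had 14.1% of effector and 4.17% of resting cells.

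The state groups with the most called cells were the Mito-low effector and the Mito-high resting cells, and between them library and state change together. Family 14 was again the only 1 of 15 families with intervals apart, or 6.67%, at 9.002% (6.42 to 12.2%) in Mito-low effector and 16.1% (12.8 to 19.9%) in Mito-high resting cells. Trav14d-3-dv8 made up 1.70% of called Mito-low effector cells, 7 cells, and 6.44% of called Mito-high resting cells, 28 cells. Family 13 was at 9.98% (7.25 to 13.3%) in Mito-low effector and 5.29% (3.38 to 7.83%) in Mito-high resting cells, with intervals that overlap. The shares of families 4, 9, 10, 12 and 16 each differed by less than 1 percentage point between these groups. Of 18 Trbv rows, 0 had intervals apart in this comparison. The family 14 difference rests on few cells and varied with the cells taken. Among barcodes with a Foxp3 UMI, 10 of 91 Mito-low effector and 9 of 83 Mito-high resting cells used family 14. That is a difference of 0.15 percentage points in the opposite direction. These counts are too few to tell this difference from that over all called cells.

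**Figure D5:**
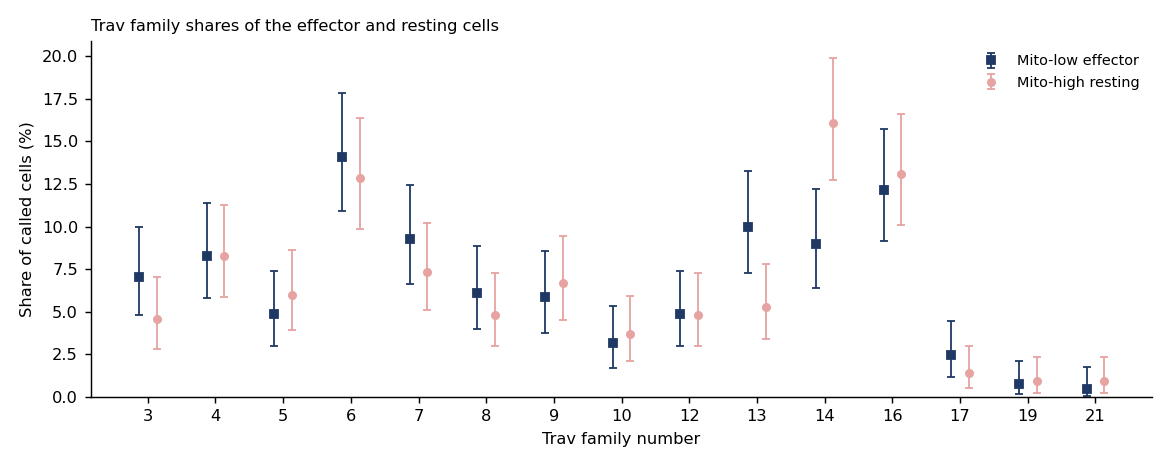
Share of called cells by Trav family in Mito-low effector cells (dark squares, left, 411 cells) and Mito-high resting cells (light circles, right, 435 cells), with exact binomial 95% intervals. Family 14 is lower in Mito-low effector cells, at 9.002% against 16.1% in Mito-high resting cells, and the other intervals overlap.

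Among the copy groups of the locus, the d copies were called more often in Mito-high. Their rows took 12.3% (10.8 to 13.8%) of called cells in Mito-high, against 8.93% (7.81 to 10.1%) in Mito-low, intervals that do not overlap. Rows of the n copies took 18.0% in Mito-high, against 17.7% in Mito-low, and rows with neither letter 69.7% in Mito-high, against 73.4% in Mito-low, with intervals that overlap for both groups. Most rows without a window of their own are d or n copies, and nearly all of these had no called cell. How the calls divide among the copy groups thus depends on which copies can be told apart, by an amount that was not measured. The d copies include Trav14d-3-dv8, which held 98 of their 239 called Mito-high cells and 55 of their 213 called Mito-low cells. Without that row the d copies took 7.24% (6.13 to 8.48%) in Mito-high, against 6.62% (5.66 to 7.70%) in Mito-low, intervals that overlap. The 10 rows with dv in their name, which can also join delta segments, took 18.3% (16.6 to 20.1%) of called cells in Mito-high, against 15.97% (14.5 to 17.5%) in Mito-low. Trdc, the delta constant segment, was detected in 7 of 356 Mito-high cells called for such a row, 1.97%, and in 6 of 381 such Mito-low cells, 1.57%. Over all called cells it was detected in 38 of 1947 in Mito-high, 1.95%, and in 13 of 2386 in Mito-low, 0.545%. The median called cell had a row 682 kb from Trac in Mito-high, against 660 kb in Mito-low. Rows within 500 kb were called in 11.5% (10.1 to 13.01%) in Mito-high, against 13.998% (12.6 to 15.5%) in Mito-low. These distances carry the same limit, since rows that cannot be told from their copies are mostly not counted at their positions. The genes of the joining machinery were near 0, as Rag1 had 0 UMIs in both libraries and Rag2 0 in Mito-high, against 1 in Mito-low. Dntt, which adds bases at joints, had 37 UMIs in Mito-high, against 14 in Mito-low, and Ptcra, the partner of the beta chain before the alpha chain is made, had 23 UMIs in Mito-high, against 36 in Mito-low.

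V segment use was similarly diverse in the libraries by family and by row, in values that have no interval here. The chance that 2 called cells of a library share a Trav family was 8.78% in Mito-high, against 8.73% in Mito-low, and that they share a row 2.67% in Mito-high, against 2.79% in Mito-low. Called cells used 79 rows in Mito-high, against 78 in Mito-low, and the 5 most used rows held 26.2% of them in Mito-high, against 27.3% in Mito-low. In Mito-low effector cells the chance of a shared family was 8.45% and in Mito-high resting cells 8.94%. For Trbv rows the chance was 7.49% in Mito-high, against 7.098% in Mito-low. Trav and Trbv were both called in 567 Mito-high cells, in 378 different pairs of rows of which 269 occurred once, and in 601 Mito-low cells, in 364 pairs of which 243 occurred once. The chance of a shared pair was 0.203% in Mito-high, against 0.270% in Mito-low. The most frequent pair in Mito-high was Trav3-3 with Trbv12-2, in 7 cells, 1.23% (0.498 to 2.53%), followed by Trav14d-3-dv8 and Trav4-4-dv10, each with Trbv12-2 in 6 cells. In Mito-low it was Trav16 with Trbv2, in 10 cells, 1.66% (0.801 to 3.04%), followed by Trav6-7-dv9 with Trbv20 in 8 cells. In effector cells no pair was seen in more than 1 of 10 Mito-high or 3 of 105 Mito-low cells. Cells with the same pair need not share a receptor, since the joints were not read.

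A second V segment was rare where it could be judged. Of cells with at least 2 UMIs of a Trav row, 7 of 406 in Mito-high, 1.72% (0.696 to 3.52%), and 13 of 625 in Mito-low, 2.08% (1.11 to 3.53%), also had at least 2 UMIs of a row from another family. The same count for the beta chain, whose second allele is mostly silenced, was 6 of 556 in Mito-high, 1.08% (0.397 to 2.33%), and 2 of 522 in Mito-low, 0.383% (0.0464 to 1.38%). The Trav share was the higher in each library, with intervals that overlap, and the difference was not tested. A barcode that holds 2 cells also gives a second segment, and the part of such barcodes was not tested. With so few UMIs per cell, a second alpha chain would be missed in most cells that have it.

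Few cells were called for the V segments of invariant alpha chains, and for natural killer T cells the count tables could hardly record them, since no 90-base window of Trav11d and 0.394% of those of Trav11 were found in that row alone. Family 11, whose Trav11 and Trav11d rows pair with Traj18 in natural killer T cells, had 2 called cells in Mito-high, 0.103% (0.0124 to 0.371%), and 5 called cells in Mito-low, 0.210% (0.0681 to 0.488%). All of them were calls of Trav11n, which the annotation lists as a pseudogene. Trav11 and Trav11d had 0 UMIs in both libraries, and the printed stretches of these rows are identical. Trav1, the V segment that joins Traj33 in mucosal-associated invariant T cells, was called in 11 Mito-high cells, 0.565% (0.282 to 1.01%), and 11 Mito-low cells, 0.461% (0.230 to 0.823%), and none of these had a Traj33 UMI. A UMI of any Traj row was found in 16.1% of all Mito-high, against 19.6% of all Mito-low cells. The lack of Traj33 UMIs thus cannot show which J segment the Trav1 cells had joined. Zbtb16, the transcription factor of both lineages, had 7 UMIs in Mito-high, against 8 in Mito-low, and none in cells called for family 11 or 1.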

How the data were processed

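The authors deposited unnormalized UMI counts, as the file headers state, with 1 table of genes by barcodes for each of 2 libraries of mouse Treg cells made with a 10x Genomics 5′ kit. The submitters' processing notes name Cell Ranger 7.1.0 and Seurat 4.3.0.1 and give mm10 as the build. Read length, annotation release, intron handling and barcode filters are not stated there. Kept barcodes held 89896278 UMIs in Mito-high, against 60526210 in Mito-low. The members, the state genes and all lists were chosen with earlier results of these data known.

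A Trav call needed at least 1 UMI. Summed UMIs were scaled to counts per 1000000 UMIs, and log2 ratios had 1 added to each sum. Shares have exact Clopper-Pearson intervals, sums exact Poisson intervals and ratios exact conditional-binomial intervals, all at 95%. Differences between 2 shares have normal-approximation intervals, also at 95%. Separate intervals that overlap do not show that 2 values are equal. A count of 0 is given with a limit of 3 counts. With 1 library a group there was no test and no p-value, and intervals apart describe counting error only. The scripts' calls and intervals were tested on simulated data. No doublet caller was run. Transcripts and positions came from GENCODE for GRCm38. The text names families with 3% or more of called cells and those with the 3 largest and smallest ratios among families with at least 50 called cells. It names the 8 rows with the most cells, some of the 5 most frequent pairs, and the receptor, joining and invariant chain genes. Other rows and families were named after their values were seen and are not all marked. Among them are Trav6n-7, Trav14-3, Trbv12-1, Trbv16 and Trbv26. Alternatives covered the call, the filters, the states, the cells taken and the scaling, with edgeR 4.0.16 TMM factors under R 4.3.3. Others were added after seeing the data: cells of 4000 to 6000 UMIs, cells of neither state, Foxp3 barcodes for the summed level, and Trav per Trac UMI. Python 3.11.15, numpy 2.4.6, scipy 1.17.1 and pandas 2.3.3 were used.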

Additional observations from a re-analysis of the deposited data

Results flagged for a closer look

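Signal was found in 2 receptor genes other than the Trav rows, Trdc and Traj18, beyond the uses of them above. Trdc, the constant segment of the delta chain, had 327 UMIs in Mito-high, in 217 cells, and 256 UMIs in Mito-low, in 73 cells. At least 3 Trdc UMIs were present in 26 Mito-high and 29 Mito-low cells. Of these, 22 Mito-high and 27 Mito-low cells also held Trac, 25 Mito-high and 26 Mito-low cells held Ikzf2, and Tcrg-C1, a gamma chain constant segment, was in 1 Mito-high cell and 0 Mito-low cells. A Trav UMI was present in 6 of these Mito-high and 7 of these Mito-low cells. By state, Trdc was at 0.580 CPM in effector and 4.85 CPM in resting cells of Mito-high, and at 4.91 CPM in effector and 21.4 CPM in resting cells of Mito-low, the last from 24 UMIs in 9 cells.

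Traj18 had 515 UMIs in Mito-high, in 484 cells or 3.96%, and 606 UMIs in Mito-low, in 558 cells or 4.78%. Of these cells, 1 in Mito-high and 0 among Mito-low cells were called for family 11, and the called cells with a Traj18 UMI spread over 19 Trav families in Mito-high, against 16 in Mito-low. Traj27, Traj12 and Traj18 took 71.3% of 1752 Traj calls in Mito-high, against 71.0% of 2009 in Mito-low, of 60 Traj rows in all.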

How the results depend on the processing

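No paired analysis was possible because each population has 1 library. Of the values that answer a comparison, 39 stayed near the reported value under an alternative and 22 did not. Near meant within the interval of the reported value or, for counts of families with intervals apart, equal or within 1.5-fold. For the diversity values that interval treated the chance as a share of called cells, which is not its own counting error. The share of called cells was 3.30% in Mito-high, against 5.27% in Mito-low with at least 2 UMIs per call, and 6.01% in Mito-high, against 10.9% in Mito-low with cells thinned to 2000 UMIs, so its size depends on depth while its order did not turn. The log2 ratio of the summed Trav level was -0.81 with TMM scaling, -0.85 with the median gene set to 0, -0.87 without mt-, ribosomal, receptor and immunoglobulin genes, -0.86 in cells of 4000 to 6000 UMIs, -0.90 in cells of neither state, -1.15 in barcodes with a Foxp3 UMI and -0.51 per Trac UMI. The number of families with intervals apart between the libraries was 0 at 2 UMIs and among Foxp3 barcodes, where fewer cells were called. Between Mito-low effector and Mito-high resting cells it was 0 at 2 UMIs, in thinned cells, with all 3 effector genes required, among Foxp3 barcodes and in cells of 4000 to 6000 UMIs. The family 14 difference between the libraries was positive under 9 of 9 alternatives, from 1.53 to 5.64 percentage points, and that of Trav14d-3-dv8 under 8 of 8, from 1.12 to 3.88. The interval of a difference can exclude 0 where the 2 separate intervals overlap, as in family 13 between the libraries. Of the values whose own interval excludes 0, 3 changed sign. Family 14 in Mito-low effector minus Mito-high resting cells was 0.15 points among Foxp3 barcodes. Family 14 in effector minus resting cells of Mito-low was 10.99 points among Foxp3 barcodes, with 5 called resting cells. Family 13 in Mito-high minus Mito-low was 0.0727 points in cells of 4000 to 6000 UMIs. The cause of these changes was not tested. The library differences of families 3, 5, 6, 7, 8, 10, 12 and 21, whose intervals include 0, also took both signs over the 9 alternatives, from -2.36 to 2.21 points in family 6 and from -0.89 to 2.82 in family 7. Requiring 1 UMI in place of 2 put cells with Trav rows of 2 families at 8.26% in Mito-high, against 10.8% in Mito-low. At 2 UMIs, Trav1 made up 1.24% of Mito-high calls and 0.488% of Mito-low calls, and family 11 made up 0.248% of Mito-high calls and 0% of Mito-low calls. Trav UMIs are few, so many differences in family share of under a few percentage points were not detectable at this depth.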
